A study of Rattus norvegicus with 54 samples.

Results

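The messenger RNAs of the heart's autonomic receptors and adenylyl cyclases were followed in 54 rat hearts. The genes were chosen by name, with earlier results of these data known: the muscarinic receptor gene Chrm2, the alpha-1 adrenergic receptor genes Adra1a and Adra1b, the beta-1 adrenergic receptor gene Adrb1, and the adenylyl cyclase genes Adcy5, Adcy6 and Adcy9. Of these 7 genes, 6 are among the 10257 genes of the expression table, and Adcy9 was not analysed here. Male wildtype Wistar rats, 7 to 8 weeks old at the start, were housed singly in 12 h of light and 12 h of darkness and went through a 5-week protocol. Control rats (C) were left undisturbed with food always available. Shift workers (W) were kept awake in a slowly turning drum during the light phase on weekdays with food at hand. Shift workers with restricted food (WRF) did the same work but had no food during it and could eat at all other times. All rats were killed on a day without work at zeitgeber time (ZT, hours after lights on) 1, 5, 9, 13, 17 or 21, with 3 rats per group and time and 18 rats per group. The tissue was the heart with atria and ventricles, so that several cell types contribute to each value. Values are fpkm (fragments per kilobase of transcript, scaled to all mapped fragments of the library), which are corrected for transcript length and can be compared between genes.

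Acetylcholine from the vagus nerve acts on the M2 muscarinic receptor, which couples to inhibitory G proteins, slows the sinus node and lowers cyclic AMP. Noradrenaline acts on the beta-1 receptor, which couples to the stimulatory G protein and through adenylyl cyclase raises cyclic AMP, heart rate and contractile force, and on the alpha-1 receptors, which couple to Gq proteins and phospholipase C. Adcy5 and Adcy6 encode the closely related main adenylyl cyclases of cardiomyocytes, both of which are inhibited by calcium and by the inhibitory G proteins.

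The stretches upstream of Chrm2 and Adcy5 are shown because these mRNAs varied together across the rats (Spearman rho 0.68 over 54 rats, and 0.79, 0.39 and 0.60 within C, W and WRF rats), 1 being a receptor that restrains cyclic AMP and the other an enzyme that makes it. RefSeq promoter entries of the GRCr8 assembly exist for 4 of the 6 genes and were read over the 250 bases before the annotated start, 5′ to 3′ on the gene's own strand. Capitals mark the GC box GGGCGG or its reverse complement CCGCCC. The Chrm2 stretch is chr4:65982200-65982449, plus strand, and the Adcy5 stretch is chr11:79123344-79123593, minus strand.
Chrm2: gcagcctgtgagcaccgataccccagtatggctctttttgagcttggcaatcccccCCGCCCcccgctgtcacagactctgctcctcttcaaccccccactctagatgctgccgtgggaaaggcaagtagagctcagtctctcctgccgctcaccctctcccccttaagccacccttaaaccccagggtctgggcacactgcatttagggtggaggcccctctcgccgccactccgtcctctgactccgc
Adcy5: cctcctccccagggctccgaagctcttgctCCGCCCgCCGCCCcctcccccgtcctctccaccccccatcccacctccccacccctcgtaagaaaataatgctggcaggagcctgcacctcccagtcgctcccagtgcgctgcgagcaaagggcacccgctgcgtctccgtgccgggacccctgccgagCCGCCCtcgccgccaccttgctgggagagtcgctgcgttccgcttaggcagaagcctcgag

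Both stretches are rich in G and C, at 62% in Chrm2 and 70% in Adcy5. The GC box occurred in 1 place in Chrm2 and in 3 places in Adcy5, and 30.5% of all 33469 promoter entries hold it in the same 250 bases. Of the 5 other motifs searched on both strands, the circadian E-box CACGTG is in 5.59% of the entries, the D-box TTATGTAA in 0.828%, the cyclic AMP response element core TGACGT in 6.95%, the GATA motif AGATAA in 10.3% and the MCAT motif CATTCC in 12.1%. None of these 5 was in the window of Chrm2, Adra1b, Adrb1 or Adcy5, and the GC box was absent from the windows of Adra1b and Adrb1 as well. With none of the 5 present, no GC box could overlap another motif that was searched. These are matches of letters in a short window and say nothing of binding.

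In C rats the mRNAs differed widely in level. Adcy5 was highest, with a median of 28.1 fpkm, and exceeded Adcy6 in 17 of 18 rats. Adcy6 (median 19.7 fpkm) and Adra1b (19.6 fpkm) could not be ranked, since Adcy6 was the higher in 10 of 18 rats. Chrm2 followed with 11.7 fpkm, below Adra1b in 14 of 18 rats. Adrb1 (4.11 fpkm) and Adra1a (3.998 fpkm) were lowest and could not be ranked, with Adrb1 the higher in 11 of 18 rats. In WRF rats Adcy5 was again highest (21.9 fpkm), Chrm2 (4.97 fpkm) lay above Adrb1 (3.79 fpkm) in 12 of 18 rats, and Adrb1 lay above Adra1a (1.77 fpkm) in 14 of 18.

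A few facts of the libraries bear on every value. The cardiomyocyte genes Ckm and Myh6 were abundant in all rats but 2. WRF51 had 31.5 fpkm of Ckm and 1419 fpkm of the lung gene Ager, and WRF62 had 170.3 fpkm of Ckm and 106 fpkm of the T cell gene Cd3e. W21 had 1027 fpkm of the liver gene Alb with Ckm at 1137 fpkm. Libraries with more than 100 fpkm of Myl7, the atrial myosin light chain, are called atrium-containing here and the others atrium-poor. There were 6 atrium-containing libraries among C rats, 7 among W rats and 9 among WRF rats. The rat numbers fall into 9 runs of 6 rats, 1 per time, called series here, with 3 series per group. The labels do not say whether the rats of a run were handled together. Titles and other labels give different times for 12 WRF rats, and the titles were used.

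The 3 groups were compared to ask whether work, and work without food, went with other levels of these mRNAs. All 6 genes had a lower median in WRF than in C rats, Chrm2 and Adra1a by the most. Over all genes the median log2 ratio of the WRF to the C median was 0.078. None of the 6 passed the study's test, the Kruskal-Wallis test adjusted over all genes (Benjamini-Hochberg) followed by the Mann-Whitney test of the pair. That test called 0.721% of all genes lower and 8.13% higher in WRF than in C rats. At an unadjusted 2-sided Mann-Whitney p under 0.05, 4 of the 6 were lower in WRF than in C rats, where 4.9% of all genes were. The alternative test, limma on log2(fpkm + 1), called 3 of the 6 lower, where it called 1.68% of all genes lower. Because the 6 genes were chosen with earlier results of these data known, the shares of all genes are a background and no test of the set. In W rats, which ate during work, all 6 medians were lower than in C rats, where the median log2 ratio of the medians over all genes was −0.0053. The limma differences of Chrm2 (0.093) and Adra1a (0.003) were above 0. None of the 6 passed either test, and none had an unadjusted p under 0.05 by Mann-Whitney (1.56% of all genes lower) or limma. The rank tests called 0.195% and limma 0% of all genes lower. Between WRF and W rats none of the 6 passed the rank tests (0.692% of all genes lower), 3 had an unadjusted Mann-Whitney p under 0.05 (7.34% of all genes lower) and limma called 2 lower (1.83% of all genes). Scaling the libraries by the median of ratios raised the members called by the rank tests from 0 to 1, Adcy5, lower in WRF than in C and in W rats. It changed the calls over all genes from 834 higher and 74 lower in WRF than in C rats to 223 higher and 211 lower. Against W rats these calls changed from 847 higher and 71 lower to 219 higher and 209 lower. In whole-heart RNA, fewer cells of a type and less RNA per cell cannot be told apart.

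**Figure D1:**
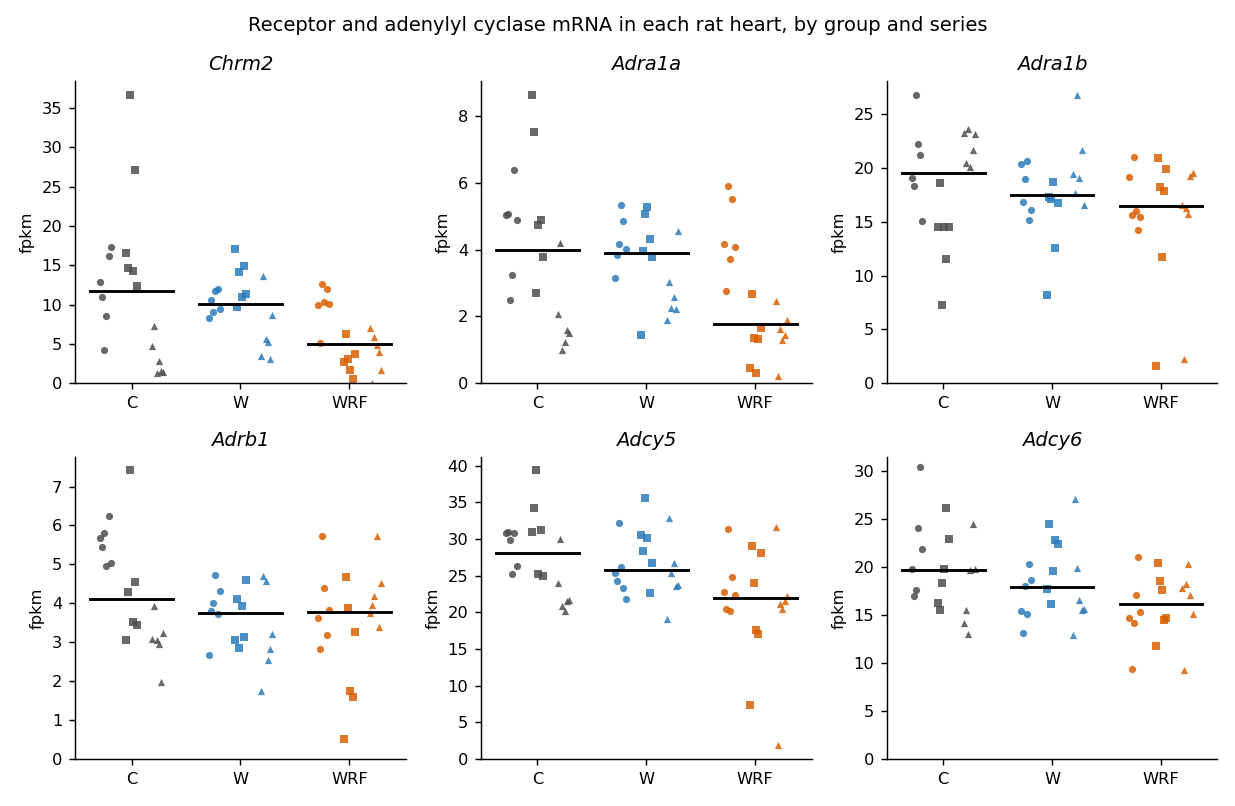
Level of each mRNA in fpkm (vertical axis) in every rat of the C, W and WRF groups (horizontal axis). Each point is 1 rat, circles, squares and triangles are the 3 series of a group, and the black line is the group median. For Chrm2 the medians were 11.7, 10.1 and 4.97 fpkm, and the triangles of the C group (C33-C38) run from 1.32 to 7.26 fpkm with a median of 2.22.

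Chrm2, the receptor of the vagus nerve in the heart, had the widest range. C rats ran from 1.32 to 36.6 fpkm (median 11.7), W rats from 3.02 to 17.1 (median 10.1) and WRF rats from 0.0898 to 12.7 (median 4.97). The WRF rats lay low, 16 of 18 below the C median, but the ranges overlapped, with the lowest C rat (C35) far below the WRF median. The limma difference between WRF and C rats was −0.82 ± 0.32 (log2 scale, SE, adjusted p = 0.0726) and between WRF and W rats −0.91 ± 0.32 (adjusted p = 0.0455). Between W and C rats it was 0.093 ± 0.32 (adjusted p = 0.9999), although the median was lower in W rats. The Kruskal-Wallis adjusted p was 0.101. Leaving out 1 series at a time moved the difference between WRF and C rats from −1.49 ± 0.30 (SE, limma adjusted p = 0.000403) without C33-C38 to −0.29 ± 0.33 (adjusted p = 0.583) without C25-C30. Of the 9 such settings, limma called Chrm2 lower in WRF than in C rats in 2 (without C33-C38 or WRF1-WRF6) and lower than in W rats in 4. For every gene, leaving out a series outside the groups compared did not move the difference and changed only its SE and adjusted p.

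Adra1a encodes the alpha-1A receptor. It ran from 0.987 to 8.63 fpkm in C rats (median 3.998), from 1.43 to 5.33 in W rats (median 3.90) and from 0.227 to 5.92 in WRF rats (median 1.77). C and W rats had close medians and 14 of 18 WRF rats lay below the C median, yet WRF3 exceeded every W rat. The limma difference was −0.58 ± 0.20 between WRF and C rats (SE, adjusted p = 0.0473) and −0.59 ± 0.20 between WRF and W rats (adjusted p = 0.0446), and the Kruskal-Wallis adjusted p was 0.126. On the log2(fpkm + 1) scale the change of a gene this low is understated, and the WRF median was 44.3% of the C median. Leaving out 1 series at a time moved the difference between WRF and C rats from −0.99 ± 0.20 (SE, without WRF1-WRF6) to −0.34 ± 0.22 (without WRF41-WRF46 with WRF62), and limma kept the call in 2 of the 9 settings, those without C33-C38 or WRF1-WRF6. Without 1 of the W series the difference stayed at −0.58 (limma adjusted p = 0.0587 to 0.0686).

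Adra1b, the alpha-1B receptor and the most abundant receptor mRNA of the 4, varied much less. Its values were 7.25 to 26.8 fpkm in C rats (median 19.6), 8.22 to 26.8 in W rats (median 17.5) and 1.59 to 20.99 in WRF rats (median 16.4). The lowest WRF values belonged to WRF62 and WRF51, the libraries rich in T cell and lung genes, and without them WRF rats started at 11.7 fpkm. The limma difference between WRF and C rats was −0.35 ± 0.19 (SE, adjusted p = 0.197), and −0.061 ± 0.11 (adjusted p = 0.730) without WRF51, WRF62 and W21.

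Adrb1, the receptor through which noradrenaline drives rate and force, ran from 1.97 to 7.42 fpkm in C rats (median 4.11), from 1.74 to 4.73 in W rats (median 3.76) and from 0.510 to 5.74 in WRF rats (median 3.79). The groups overlapped almost completely, apart from C27 and a few other C rats above all W and WRF values. The limma difference between WRF and C rats was −0.24 ± 0.14 (SE, adjusted p = 0.219) and between W and C rats −0.19 ± 0.14 (adjusted p = 0.9999).

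Adcy5 was the member nearest to the threshold of the rank test, with a Kruskal-Wallis adjusted p of 0.0747. C rats had 20.2 to 39.3 fpkm (median 28.1), W rats 19.1 to 35.5 (median 25.8) and WRF rats 1.90 to 31.7 (median 21.9). In WRF rats 15 of 18 values were below the C median, and the lowest belonged to WRF51, while all C and W rats lay at or above 19.1 fpkm. The limma difference between WRF and C rats was −0.48 ± 0.17 (SE, adjusted p = 0.0454), and it was −0.23 ± 0.084 (adjusted p = 0.0641) without WRF51, WRF62 and W21. It was −0.62 to −0.36 without 1 series at a time, and limma kept the call in 2 of the 9 settings, those without C33-C38 or WRF1-WRF6. Without 1 of the W series it stayed at −0.48 (limma adjusted p = 0.0604 to 0.0674).

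Adcy6 had 13.03 to 30.5 fpkm in C rats (median 19.7), 12.9 to 27.1 in W rats (median 17.9) and 9.25 to 21.03 in WRF rats (median 16.2). The groups shared most of their range, and the highest C values were those taken at ZT17. The limma difference between WRF and C rats was −0.30 ± 0.10 (SE, adjusted p = 0.0429), −0.23 ± 0.097 without WRF51, WRF62 and W21 (adjusted p = 0.105), and the Kruskal-Wallis adjusted p was 0.163. Without those 3 libraries limma called none of the 6 in either comparison with WRF rats. Without 1 series at a time the difference of Adcy6 was −0.37 to −0.23, called by limma in 2 of the 9 settings, those without C33-C38 or W33-W38. Without W1-W11 or W17-W22 it stayed at −0.30 (limma adjusted p = 0.0573 and 0.0502).

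For Chrm2 and Adra1a the medians of the series within a group lay as far apart as those of the groups. A limma F test of the 3 series with terms for time, added after the data had been seen, found a difference among the C series for 6 of 6 genes, where it found one for 34.7% of all genes. It found one for 1 of 6 among the W series (Chrm2, 16.7% of all genes) and for 0 of 6 among the WRF series (0.468% of all genes), where the unadjusted limma p of Chrm2, Adra1a and Adrb1 was 0.0124, 0.00151 and 0.0213. The Chrm2 medians were 11.9 and 15.6 fpkm in the series C17-C22 and C25-C30 but 2.22 fpkm in C33-C38. They were 9.98, 12.7 and 5.44 fpkm in W1-W11, W17-W22 and W33-W38. In WRF1-WRF6 the median was 10.2 fpkm, close to most C and W rats, and in the other two WRF series it was 2.90 and 4.41 fpkm. Adra1a followed the same pattern, with 4.97, 4.81 and 1.55 fpkm in the C series, 4.10, 4.15 and 2.41 fpkm in the W series and 4.12, 1.33 and 1.53 fpkm in the WRF series. Thus the third series of the C and W rats lay low and the WRF1-WRF6 series lay high. Adra1b went the other way in C rats, at 20.1, 14.5 and 22.4 fpkm. Adcy5 was 30.4, 31.1 and 21.6 fpkm in the C series, 24.8, 29.2 and 24.5 fpkm in the W series and 22.6, 20.8 and 21.4 fpkm in the WRF series.

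With the 9 series means as samples, also added after the data had been seen, limma called none of the 6 genes and none of the 10257 in any comparison. At an unadjusted limma p under 0.05 it gave Adcy5 and Adcy6 in WRF against C rats (2 of 6, beside 11.4% of all genes in either direction), Adcy5 in WRF against W rats (1 of 6, beside 9.83%) and 0 of 6 in W against C rats (0.253%). The Chrm2 difference between WRF and C rats then had an SE of 0.59 (adjusted p = 0.575), that of Adra1a an SE of 0.37 (adjusted p = 0.534), that of Adcy5 was −0.48 ± 0.15 (SE, adjusted p = 0.415) and that of Adcy6 −0.30 ± 0.11 (adjusted p = 0.415). Leaving out C33-C38 raised the members called lower in WRF than in C rats by the rank tests to 3 (Chrm2, Adra1a and Adcy5), while the share of all genes called lower rose to 11.2%. Leaving out WRF1-WRF6 raised the members to 2 (Chrm2 and Adra1a) and the share of all genes to 5.15%. Without C25-C30 the rank tests called Adra1b alone, in WRF against C rats (0.322% of all genes lower) and in W against C rats (0.741%), and without C33-C38 they called Chrm2 in W against C rats, where 8.04% of all genes were called lower. The summed fpkm of all genes moved with these values: its series median was 572038 in C33-C38 against 472765 and 426879 in the other two C series, and 607646 and 572371 in the WRF series with low Chrm2 against 512844 in WRF1-WRF6. Over the 54 rats the Spearman rho with the summed fpkm was −0.59 for Chrm2, −0.69 for Adra1a, −0.59 for Adcy5, −0.32 for Adrb1, −0.26 for Adcy6 and −0.050 for Adra1b. Its part in the group differences was not tested.

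Chrm2 is known to be denser in atria than in ventricles, and the share of atrium differed between libraries. In C rats the 6 atrium-containing libraries had 10.9 to 36.6 fpkm of Chrm2 (median 15.8) and the 12 atrium-poor ones 1.32 to 16.6 (median 6.02). The 7 atrium-containing W libraries had 10.5 to 17.1 fpkm (median 12.0) and the 11 atrium-poor ones 3.02 to 13.7 (median 8.71). In WRF rats there were 0.590 to 7.02 fpkm (median 3.74) in the 9 atrium-containing and 0.0898 to 12.7 (median 10) in the 9 atrium-poor libraries, the order of the medians being turned. The 6 libraries of WRF1-WRF6 are all among the atrium-poor ones. In WRF50-WRF55, the WRF series with both kinds, the 3 atrium-containing libraries had 4.86, 5.87 and 7.02 fpkm, above the 3 atrium-poor ones at 0.0898 (WRF51), 1.62 and 3.95 fpkm. Every atrium-containing WRF library was thus below every atrium-containing C and W library in Chrm2. In Adra1a each was below every atrium-containing C library, narrowly so (WRF41 at 2.67 and C27 at 2.69 fpkm). Such a separation held for 2 of 6 members against C rats, where 2.1% of all genes did the same, and for 1 of 6 against W rats (1.04% of all genes). This separation depends on the limit of 100 fpkm. WRF5, just under it with 97.0 fpkm of Myl7, had 12.0 fpkm of Chrm2, above the lowest atrium-containing C (10.9) and W (10.5) libraries. Its Adra1a of 5.50 fpkm was above the highest atrium-containing C library (5.06). Within the atrium-containing libraries the rank tests called Chrm2 and Adra1a lower in WRF than in C rats and in W rats (7.13% and 6.96% of all genes lower). The limma difference between WRF and C rats there was −2.09 ± 0.30 for Chrm2 (SE, adjusted p = 0.00011) and −1.23 ± 0.22 for Adra1a (adjusted p = 0.00105). Within the atrium-poor libraries none of the 6 was called by the rank tests, and the differences were −0.047 ± 0.42 for Chrm2 (SE, adjusted p = 0.959 by limma) and −0.079 ± 0.28 for Adra1a (adjusted p = 0.892). Adcy5 differed by −0.50 ± 0.24 (SE, adjusted p = 0.268 by limma) in the atrium-poor and −0.55 ± 0.21 (adjusted p = 0.0774) in the atrium-containing libraries. Whether the difference itself differs between the 2 kinds of library was not tested. No library of C33-C38, W33-W38 or WRF1-WRF6 was atrium-containing and all 6 of WRF41-WRF46 with WRF62 were, while the other 5 of the 9 series held both kinds.

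**Figure D2:**
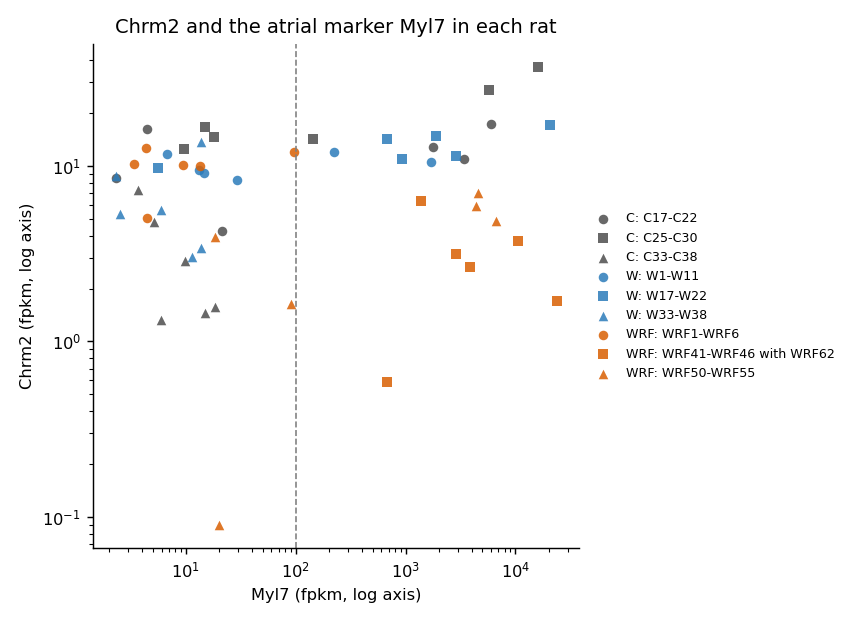
Chrm2 (vertical log axis, fpkm) against the atrial marker Myl7 (horizontal log axis, fpkm), 1 point per rat, with colours for groups and shapes for series. The dashed line is the limit of 100 fpkm, and to its right all 9 WRF points lie at 7.02 fpkm of Chrm2 or less and all C and W points at 10.5 fpkm or more. WRF5 lies just to its left, at 97.0 fpkm of Myl7 and 12.0 fpkm of Chrm2.

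The 6 levels were next followed over the day. Adcy6 was the only member with a daily rhythm by harmonic regression with a period of 24 h (q, the Benjamini-Hochberg adjusted p over all genes, under 0.05), and it passed in C rats alone, where 0.848% of all genes passed. Its C values at ZT1 were 14.2, 16.3 and 19.8 fpkm, at ZT5 15.5, 15.6 and 16.96, and at ZT9 13.03, 17.6 and 18.3. They were 19.7, 19.8 and 24.1 fpkm at ZT13, 24.5, 26.1 and 30.5 at ZT17, and 19.8, 21.8 and 22.9 at ZT21. The values at ZT17, in the middle of the dark phase when rats are active, were thus above all those at the 5 other times. The relative amplitude (fitted amplitude divided by the mean) was 0.267 and the fitted peak ZT17.2 (q = 0.0151 over 18 rats, harmonic regression), and the rank-based JTK test gave q = 0.0222 (0.517% of all genes). Each C series alone peaked between ZT17 and ZT17.3, with relative amplitudes of 0.247 to 0.284, although leaving out any of the 3 series raised q to 0.157 (without C33-C38), 0.303 (without C17-C22) and 0.347 (without C25-C30).

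In W rats Adcy6 had a relative amplitude of 0.0185 (q = 0.9997, harmonic regression over 18 rats, 0% of all genes rhythmic). Its means ± SD (n = 3) were 15.4 ± 2.43 fpkm at ZT1 and 21.6 ± 7.39 fpkm at ZT5, followed by 18.03 ± 1.90 at ZT9 and 17.1 ± 2.32 at ZT13, and then by 19.6 ± 3.71 at ZT17 with 18.9 ± 3.40 at ZT21. The fitted peaks of the W series were ZT17.4 in W1-W11 (relative amplitude 0.146), ZT20.8 in W17-W22 (0.0739) and ZT7.01 in W33-W38 (0.255). With so low an amplitude the peak time of W17-W22 is poorly defined, and its highest value was at ZT5 (W18, 24.5 fpkm). In W33-W38 the highest value, also at ZT5, was 27.1 fpkm (W34) and the next 19.9 fpkm (W35). The clock gene Per2 also had an early fitted peak in W33-W38, at ZT5.77, against ZT14.8 in W1-W11 and ZT13.5 in W17-W22, where its relative amplitude was 0.165. From W1-W11 to W17-W22 the fitted peak of Adcy6 was later and that of Per2 earlier, with low amplitudes of both genes in W17-W22. In WRF rats the relative amplitude of Adcy6 was 0.187 with a fitted peak at ZT16.2 (q = 0.568, harmonic regression over 18 rats, 0.039% of all genes rhythmic), and the WRF series peaked at ZT16.7, ZT13 and ZT18.8. The WRF means ± SD (n = 3) were 14.8 ± 0.260 fpkm at ZT1 and 12.98 ± 4.38 fpkm at ZT5, followed by 14.6 ± 5.58 at ZT9 and 17.96 ± 0.797 at ZT13, and then by 19.6 ± 1.82 at ZT17 with 15.7 ± 1.33 at ZT21. At ZT17, the time of the C peak, C rats had 24.5 to 30.5 fpkm, WRF rats 17.6 to 21.03 and W rats 15.6 to 22.9 (3 rats each). This time is singled out by the C values, and the difference at it was not tested.

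A rhythm that passes in 1 group and not in another is not thereby shown to differ, and the difference was tested itself with a limma F test of the time terms. None of the 6 members passed in WRF against C or in W against C rats, nor did any of the 10257 genes (0%). At an unadjusted limma p under 0.05, 1 of 6 members (Adcy6, p = 0.0168) differed between W and C rats, where 1.83% of all genes did, and 0 of 6 between WRF and C rats (5.76% of all genes). Without W33-W38 the p of Adcy6 was 0.199 by limma.

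**Figure D3:**
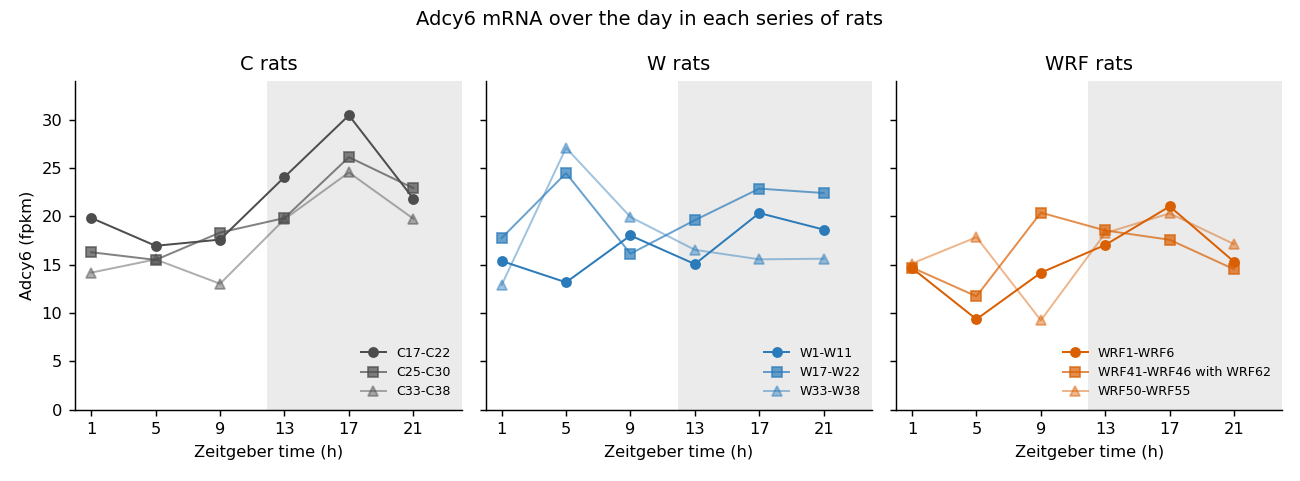
Adcy6 in fpkm (vertical axis) against zeitgeber time in hours (horizontal axis), with the dark phase shaded, 1 panel per group, 1 line per series and 1 rat per point. The 3 C lines all peak at ZT17, at 24.5 to 30.5 fpkm, whereas W33-W38 and W17-W22 are highest at ZT5.

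The other members showed no rhythm that passed. In C rats the relative amplitude was 0.296 for Adra1a, 0.128 for Adrb1, 0.112 for Adcy5, 0.0422 for Adra1b and 0.0286 for Chrm2, each with q = 0.9999 (harmonic regression over 18 rats). The Adcy5 profile of W rats had the lowest unadjusted p among the rest, 0.0219 with q = 0.9997 (harmonic regression over 18 rats), a relative amplitude of 0.140 and a fitted peak at ZT8.21. Its 3 W series peaked at ZT9.00, ZT7.31 and ZT8.46. At an unadjusted p under 0.05 by harmonic regression, 1 of 6 members was rhythmic in W rats, Adcy5 (3.05% of all genes), and 1 of 6 in WRF rats, Adcy6 (6.35% of all genes). Chrm2 varied so much between series that its C values at ZT9 alone were 1.32, 4.25 and 36.6 fpkm.

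**Figure D4:**
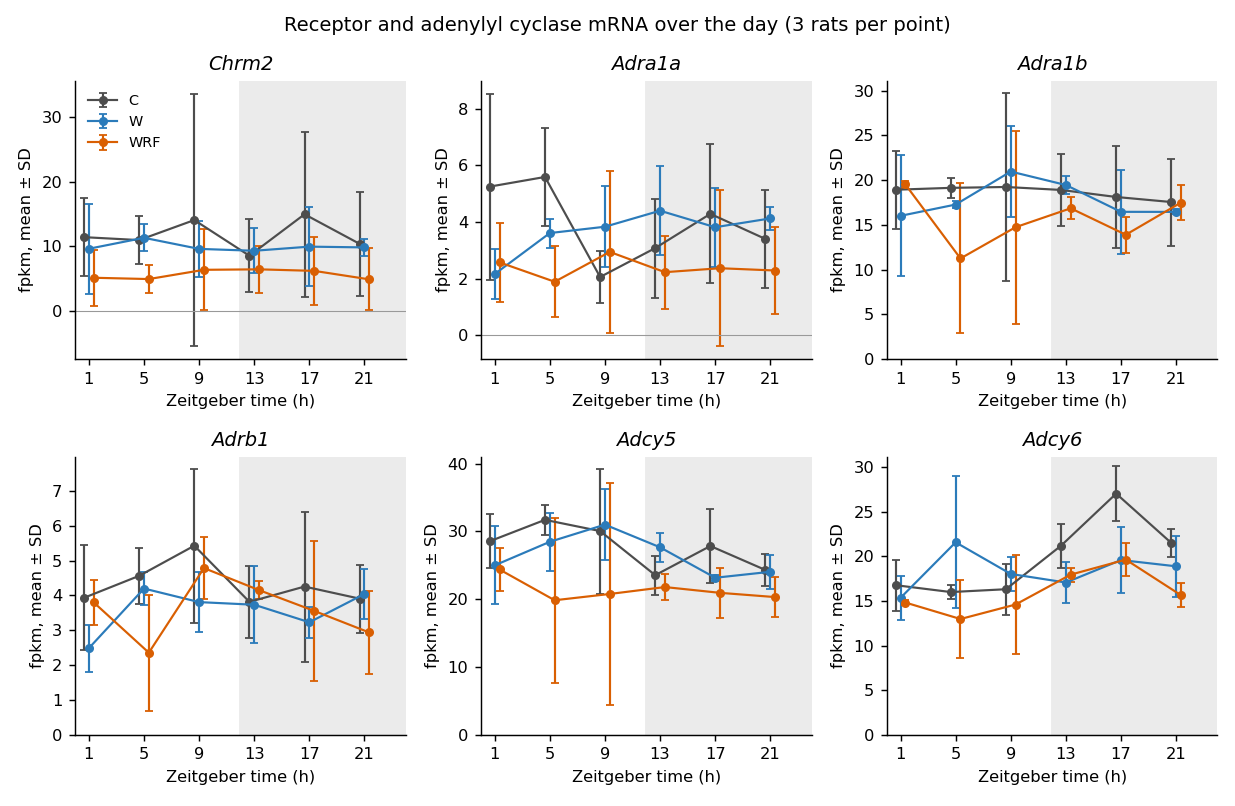
Mean ± SD in fpkm (vertical axis) of 3 rats at each zeitgeber time in hours (horizontal axis) for each mRNA, with lines for C, W and WRF rats, shifted slightly sideways for legibility, and the dark phase shaded. Adcy6 in C rats rises to 27.04 ± 3.06 fpkm at ZT17, and Chrm2 in C rats has its widest error bar at ZT9 (14.1 ± 19.6 fpkm).

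Across the 54 rats Chrm2 ran most closely with Adra1a (Spearman rho 0.80) and Adcy5 (0.68), and oppositely to Adra1b (−0.39). Within C rats these values were 0.74, 0.79 and −0.80, within W rats 0.41, 0.39 and −0.67, and within WRF rats 0.87, 0.60 and 0.19 (18 rats each). Adcy6 was nearly unrelated to Adcy5 in C rats (0.0031), with 0.29 in W rats, 0.40 in WRF rats and 0.29 over all 54. Chrm2 also ran opposite to the muscle creatine kinase gene Ckm in C (−0.88), W (−0.68) and WRF rats (−0.28). These are descriptions over rats that fall into the same 9 series.

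The 3 genes whose levels were most like each member's by Spearman rho over the 54 rats were found among all genes. For Chrm2 they were Kif1b, Cpd and Cdc42bpa, each at 0.96. Kif1b encodes a kinesin motor, Cpd a carboxypeptidase and Cdc42bpa a kinase that binds Cdc42. For Adra1a they were the muscle ubiquitin ligase gene Fbxo32 (0.94), the transcription factor gene Tead1 (0.93) and Gfod1 (0.93). For Adra1b they were the lysine methyltransferase gene Smyd2 (0.80), the integrin gene Itga7 (0.76) and Macrod1 (0.75). For Adrb1 they were the Gq family gene Gna11 (0.66), the transcription factor gene Mef2d (0.63) and Fam214b (0.61), the loosest of the 6 sets. For Adcy5 they were the splicing factor gene Rbm20 (0.88), the supervillin gene Svil (0.87) and the vinculin gene Vcl (0.86). For Adcy6 they were Amd1 (0.79), which encodes a decarboxylase of polyamine synthesis, the transcription factor gene Gata6 (0.75) and Zfp672 (0.74). The fitted peaks of Amd1, a gene picked for its likeness to Adcy6, were ZT16.7, ZT15.8 and ZT16.7 in the C series, ZT16.8, ZT20.99 and ZT6.60 in the W series, and ZT15.3, ZT14.1 and ZT15.9 in the WRF series. Without WRF51, WRF62 and W21 the 18 values were 0.61 to 0.96.

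The other genes of the pathway were read from lists of 101 genes in the table. Of these, 2 were called higher in WRF than in C rats (8.13% of all genes were) and 5 lower (0.721% of all genes). The higher ones were the G protein gamma gene Gng10, with medians of 25 fpkm in C and 34.1 fpkm in WRF rats, and Rgs10, a regulator that shortens G protein signals, at 12.6 and 17.8 fpkm. The lower ones were the cyclic AMP phosphodiesterase gene Pde4a (7.42 and 5.78 fpkm), the L-type calcium channel gene Cacna1c (9.15 and 6.77 fpkm), the pacemaker channel gene Hcn4 (1.76 and 0.640 fpkm), the cyclic AMP-binding Popdc3 (1.93 and 0.814 fpkm) and the Gq effector phospholipase gene Plcb4 (13.02 and 9.37 fpkm). The 2 groups overlapped in each of these genes. Without WRF51, WRF62 and W21 none of the 7 was called, and without WRF51 alone or WRF62 alone Hcn4 was the only one of the 5 still called lower. Leaving out 1 series at a time gave 0 to 8 called higher and 0 to 26 called lower, with 26 lower without C33-C38 (11.2% of all genes lower), 19 without WRF1-WRF6 (5.15%) and none without C17-C22 (0.0975%). Without WRF41-WRF46 with WRF62, or without WRF50-WRF55, none of the 101 and none of all genes was called.

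By list, the alpha-1D receptor gene Adra1d was not called in WRF against C rats, by the rank tests or by limma, with medians of 2.58 fpkm in C and 2.38 fpkm in WRF rats (Kruskal-Wallis adjusted p = 0.184). None of the 4 other cyclase genes was called by either test, and 1 of 4, Adcy1, had an unadjusted Mann-Whitney p under 0.05. The Adcy1 median was 1.28 fpkm in C and 0.485 fpkm in WRF rats (Kruskal-Wallis adjusted p = 0.209), and Adcy7, a cyclase of blood cells, was highest in the T cell-rich WRF62 at 12.6 fpkm. By the rank tests 1 of 20 G protein genes and 1 of 14 genes of receptor desensitisation were called higher, where 8.13% of all genes were. Of 11 phosphodiesterase genes these tests called 1 lower (0.721% of all genes), and limma called Pde4a and Pde3a lower (1.68% of all genes). The median limma log2 difference was −0.18 over the 11 (−0.24 without WRF51, WRF62 and W21) beside 0.076 (0.030) over all genes. The phosphodiesterase gene Pde3a had medians of 9.94 fpkm in C and 3.79 fpkm in WRF rats (Kruskal-Wallis adjusted p = 0.0693).

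None of the 8 genes of protein kinase A and Epac and none of the 10 anchoring protein (AKAP) genes was called. At an unadjusted Mann-Whitney p under 0.05, 1 of the 8 was higher and 2 lower, and 2 of the 10 were lower (21.4% of all genes higher and 4.9% lower). Limma called 1 of each list, Prkar2b higher (as 1154 of all genes) and Akap6 lower (as 172 of all genes). Prkar2b, a regulatory subunit of protein kinase A, had 1.199 fpkm in C and 2.64 fpkm in WRF rats (Kruskal-Wallis adjusted p = 0.0579), and Akap6, which anchors the kinase at the nuclear envelope, 12.1 and 5.85 fpkm (adjusted p = 0.0604). Of 16 protein kinase A target genes the rank tests called 1 lower (0.721% of all genes). Limma called Cacna1c, Cacna2d1, Cacnb2 and Ryr2 lower (1.68% of all genes). The median limma log2 difference over the 16 was −0.33, but −0.066 without WRF51, WRF62 and W21, and the median log2 ratio of the group medians was −0.13. The ryanodine receptor gene Ryr2 had 68.1 fpkm in C and 43.5 fpkm in WRF rats (Kruskal-Wallis adjusted p = 0.0753). Of 7 genes of heart rate currents 2 were called lower, by the rank tests (0.721% of all genes) and by limma (1.68%). Their list had a median limma log2 difference of −0.43, which was −0.26 without WRF51, WRF62 and W21, and a median log2 ratio of the group medians of −0.20. Kcnj3, the channel opened by the M2 receptor, had 8.44 fpkm in C and 5.28 fpkm in WRF rats (Kruskal-Wallis adjusted p = 0.324). Of 9 Gq effector genes 1 was called lower, by the rank tests (0.721% of all genes) and by limma (1.68%). In W against C rats 1 of the 101 was called, Pde4a (0.195% of all genes lower), with medians of 6.44 fpkm in W and 7.42 fpkm in C rats. In C rats 2 of the 101 were rhythmic by harmonic regression, Popdc3 (fitted peak ZT1.07) and Rgs4 (ZT2.44), where 0.848% of all genes were.

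**Figure D5:**
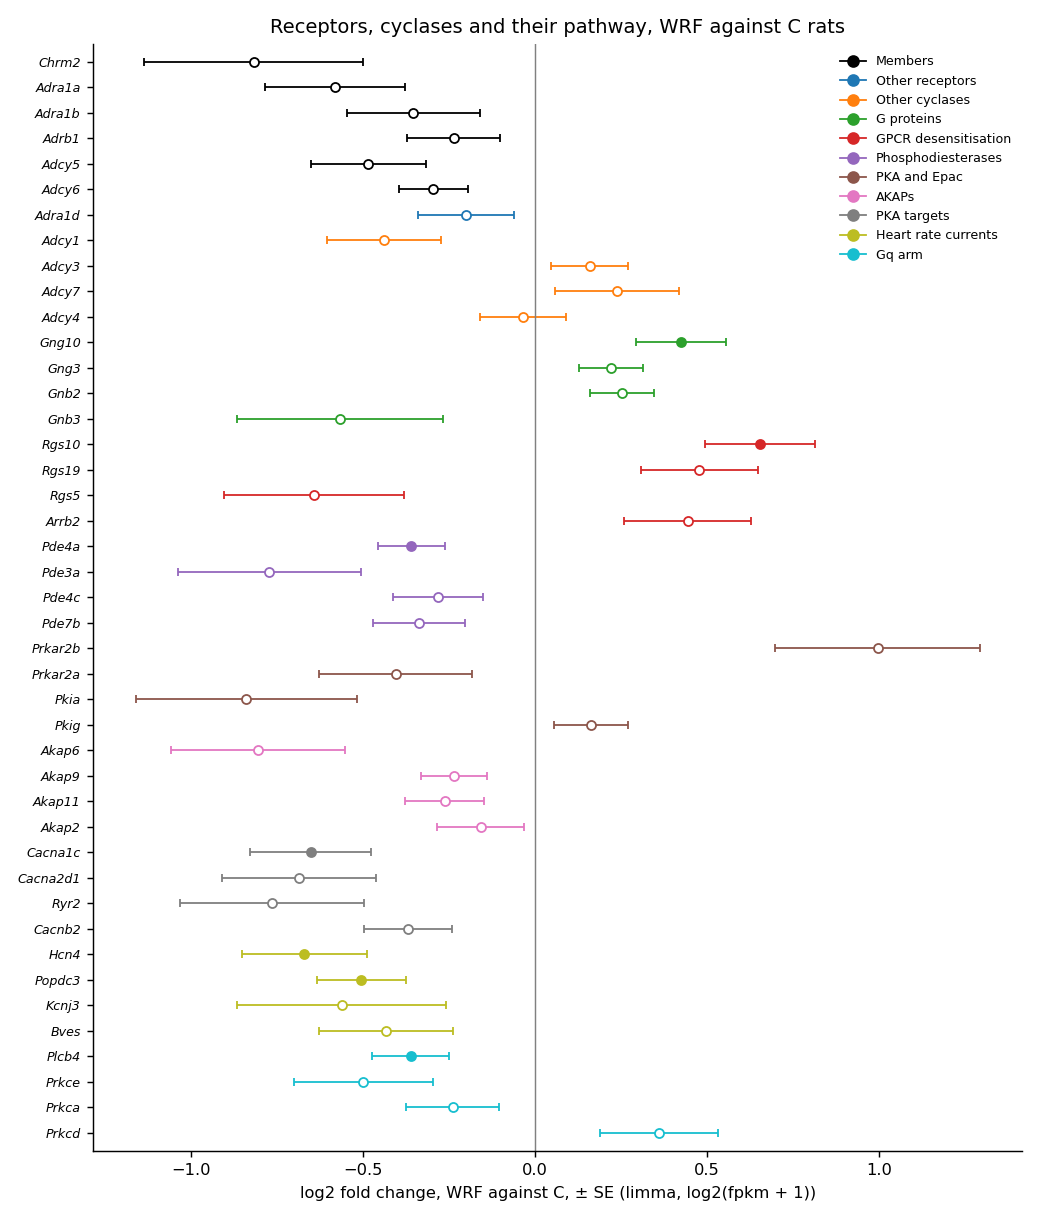
Difference between WRF and C rats on the log2(fpkm + 1) scale (horizontal axis, points with SE bars, limma) for the 6 members in black and for up to 4 genes of each pathway list with the lowest Kruskal-Wallis p (vertical axis, 1 colour per list). Filled points passed the rank tests: Gng10 and Rgs10 to the right of 0, Pde4a, Cacna1c, Hcn4, Popdc3 and Plcb4 to the left, and no member.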

How the data were processed

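Hearts of 54 male Wistar rats were measured by directional mRNA sequencing. The authors aligned reads to rn6 with TopHat2, estimated fpkm with Cufflinks and deposited genes above 1 fpkm in at least 18 rats. Versions and the gene annotation are not given in the sources used here. The deposited fpkm values of 10257 genes were used, all 54 columns, 0 left out. The paper gives a median read depth and refers to a supplementary table of depth and alignment, which was not used here. Summed fpkm was 373115 to 749554 per rat. Because all 3 groups are scaled to mapped fragments, a rise of abundant genes lowers all others. The members and pathway lists were chosen with earlier results of these data known. Groups were compared with the study's design (Kruskal-Wallis, Benjamini-Hochberg adjusted p at most 0.05 over all genes, then a 2-sided Mann-Whitney p under 0.05, times pooled). Sizes and SEs came from limma 3.58.1 (R 4.3.3, trend, a mean for each group) after log2(fpkm + 1). Rhythms were tested by harmonic regression on fpkm with a 24 h period, 1 of the study's methods, with q under 0.05, and rhythm differences by limma with time terms. Python 3.11.15 with scipy 1.17.1 was used. Scripts were tested on simulated data. Named genes were every member, up to 4 genes per pathway list with the lowest Kruskal-Wallis p, the 3 most correlated genes per member, and markers. Per2 was added after its values were seen. Alternatives were another pseudocount (0.1), a mean of at least 5 fpkm, median-of-ratios scaling, limma, terms for time or Myl7, and leaving out libraries or series. Labels do not say that rats were independent beyond being separate animals, so p-values measure the spread between these rats. 1 item of the pathway lists is not reported here.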

Additional observations from a re-analysis of the deposited data

How the results depend on the processing

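Of the alternatives, a pseudocount of 0.1 and a mean of at least 5 fpkm (which left 4 of the 6 members) changed no count of members called. In WRF against C rats the main count of 0 became 1 with median-of-ratios scaling, 3 with limma in place of the rank tests, 1 with limma and terms for time, 2 in atrium-containing libraries, 3 with Myl7 as a covariate and 0 to 3 when 1 series at a time was left out. Of all genes, the 74 called lower became, in that order, 211, 172, 152, 731, 204 and 0 to 1151. In WRF against W rats the main count of 0 members became 1 with median-of-ratios scaling, 2 with limma, 2 in atrium-containing libraries, 1 with the covariate and 0 to 3 without 1 series. Of all genes, the 71 called lower became, in that order, 209, 188, 714, 150 and 0 to 611. In W against C rats the count of members was 0 to 1 without 1 series, where the 20 of all genes called lower became 0 to 825. Without WRF51, WRF62 and W21 no member was called. The 1 rhythmic member in C rats became 0 (0 to 0) when any series was left out and was kept under JTK, log2 values and median-of-ratios scaling, and the counts in W and WRF rats and of rhythm differences did not move.

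Of the fold changes, that of Adrb1 in WRF against C rats reversed to 0.054 in atrium-poor libraries, and in WRF against W rats to 0.045 without WRF62, 0.032 without WRF51, WRF62 and W21, 0.13 in atrium-poor libraries, and −0.17 to 0.16 without 1 series. In W against C rats, where no member was called by limma, the log2 differences were −0.58 to 0.62 (Chrm2), −0.34 to 0.22 (Adra1a), −0.26 to 0.094 (Adra1b) and −0.17 to 0.029 (Adcy5) without 1 series, −0.47 (Chrm2), −0.16 (Adra1a) and 0.092 (Adra1b) in atrium-containing libraries, and −0.012 (Adra1a) without the 3 libraries.

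For the pathway lists, applied after the data had been seen, the 2 genes called higher became 1 with median-of-ratios scaling, 4 with limma and terms for time, 0 without WRF51, WRF62 and W21, 0 in atrium-poor and 1 in atrium-containing libraries, 1 with the covariate, 0 on series means and 0 to 8 without 1 series. Of all genes, the 834 called higher became, in that order, 223, 1146, 483, 0, 669, 774, 0 and 0 to 2556. The 5 called lower became 10 with limma, 1 without WRF51, 1 without WRF62, 0 without those and W21, 0 in atrium-poor and 24 in atrium-containing libraries, 9 with the covariate, 0 on series means and 0 to 26 without 1 series. Of all genes, the 74 called lower became, in that order, 172, 61, 47, 37, 0, 731, 204, 0 and 0 to 1151. The cause of these changes was not tested.

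The labels give 12 C and 12 W rats the same numbers. Same-numbered rats deviated together in 6 of 12 pairs (correlation over 0.1, range −0.18 to 0.65), so pairing by number was not assumed. With the replicate block 0 of 6 members were called among these 24 rats, as without it, the SE of each member being smaller with it. Chrm2 was 0.56 ± 0.21 with the block (limma adjusted p = 0.209) and 0.56 ± 0.36 without it (adjusted p = 0.626), and Adcy5 was 0.055 ± 0.071 with the block and 0.055 ± 0.095 without it (SE).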
